A study of Mus musculus with 23 samples.

Results

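The data described here are the 7 arrays of tumour cells that compare 7 days of nintedanib with no treatment, out of 23 expression arrays in the series. The arrays were chosen by their labels: 4 arrays of tumour cells from mice on short-term nintedanib and 3 arrays of tumour cells from mice without treatment. All tumours came from Py2T, a mouse breast cancer cell line, grown in the mammary fat pad of female FVB/N mice, and the cells were isolated by fluorescence-activated sorting. Treated mice received nintedanib at 50 mg per kg body weight, for 7 days in the short-term group and for 21 days in a long-term group of 5 tumour cell arrays. The untreated tumours were size-matched to the long-term tumours, so an untreated group of the same size as the short-term tumours was not compared here. Endothelial cells sorted from the same kind of tumours gave 3 untreated and 3 short-term arrays that are used below for comparison. The labels give no age, and name the arrays of a group biological replicates without saying which animals or pools they came from, so that p-values measure the spread between these samples, which may be technical in part. By its title, the series is about how tumours share metabolites and how they escape drugs against vessels.

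Nintedanib blocks the kinase activity of the receptors for vascular endothelial, fibroblast and platelet-derived growth factors. In tumours the drug acts on vessels through the first of these receptors and can act directly on any tumour cell that depends on fibroblast or platelet-derived growth factor signalling. Downstream of such receptors the ERK pathway switches on its own inhibitors, among them the Sprouty genes, and induces Etv transcription factors, so these transcripts serve as a readout of receptor signalling. Loss of vessels lowers the supply of oxygen and nutrients, to which cells respond with hypoxia, chaperone and unfolded protein programmes.

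Each value is a log2 signal of a transcript cluster, a set of array probes for a transcript, normalised so that all arrays share a common distribution. A difference of 1 on this scale is a doubling of signal relative to the other transcripts of the array. For 19938 genes the 7-day and untreated groups were compared with limma, and a gene was called at a Benjamini-Hochberg adjusted p under 0.05. Across genes, untreated and 7-day arrays correlated at 0.983 to 0.989, no less than arrays of 1 group (0.983 or more), and a gene typically varied by 0.156 log2 units between replicates (median residual SD). The sorted cells carried the epithelial keratins Krt8 (11.37 ± 0.07 in untreated and 11.37 ± 0.15 in 7-day arrays, SD, n = 3 and 4) and Krt18 (10.93 ± 0.29 and 10.88 ± 0.15). Epcam, a surface protein of epithelial cells, was low in both groups (4.29 ± 0.50 and 4.67 ± 0.19), near its level of 4.71 in untreated endothelial arrays. The mesenchymal filament gene Vim read 12.14 and 12.06, so the arrays labelled tumour cells carried keratin and mesenchymal transcripts with little Epcam signal. The 8 epithelial tumour markers together were higher at 7 days, with a mean of 7.51 to 7.59 against 7.01 to 7.29 in untreated arrays, 7 positive differences and a median of 0.26, though none was called and 2 had an unadjusted p under 0.05. The 18 endothelial markers stayed near the floor of the scale in tumour cells, with a mean of 4.16 to 4.25 in untreated and 4.05 to 4.22 in 7-day arrays. Pecam1 read 4.37 and 4.17 there, against 11.45 in untreated endothelial cells.

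Of the 19938 genes, 101 were called after 7 days of nintedanib (0.507%). Transcripts of 79 genes rose (0.396% of all genes) and those of 22 fell (0.110%). The genes that rose had a median log2 difference of 1.09, from 0.39 to 2.14, and 46 of them reached a doubling. Those that fell had a median of -0.94, from -0.40 to -2.24, and 10 of them fell to 50% of the untreated signal or lower. At an unadjusted p under 0.05 there were 2198 genes (11%), and the median difference over all genes was -0.01, with 46.8% of genes above zero. The number called depended on single arrays: leaving out untreated replicate 3 lowered it to 24, and leaving out short-term replicates 1 to 4 to 23, 28, 57 and 37. Dropping long-term replicate 2 or 3, whose spread is part of the same variance estimate, gave 62 or 56. A fit over all 23 arrays called 30 genes and array weights gave 67. All 101 genes kept their sign in every alternative in which they were tested, but most of these could not have turned it. No called gene overlapped between the groups, so leaving out 1 array could not turn its sign. Several other fits reuse the same group means.

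**Figure D1:**
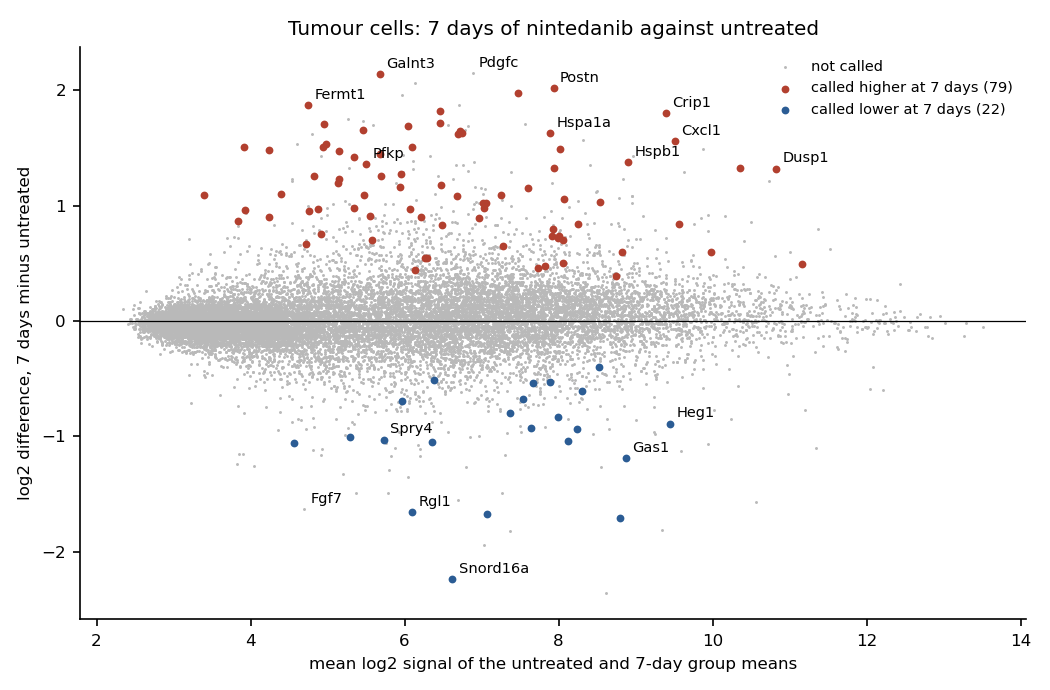
Log2 difference between 7-day and untreated tumour cells (vertical axis) against the mean log2 signal of the group means (horizontal axis) for 19938 genes, 1 point per gene. The 79 genes called higher lie between 0.39 and 2.14 and the 22 called lower between -0.40 and -2.24, while Pdgfc and Fgf7 lie far from zero without being called.

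The heat shock gene Hspa1a had the smallest p of the named genes. It encodes an inducible chaperone of the HSP70 family that refolds damaged proteins. Its log2 signal was 7.03, 7.04 and 7.15 in the untreated arrays and 8.66, 8.83, 8.66 and 8.69 in the 7-day arrays. The groups lay far apart beside the spread within each, an SD of 0.07 without treatment and 0.08 at 7 days. The difference was 1.63 ± 0.08 (SE, n = 3 against 4, adjusted p = 3.83e-06), a 3.11-fold rise. A neighbouring, near-identical copy, Hspa1b, shares a further probe set with Hspa1a, so the signal may come from either copy. Hspb1, a small heat shock protein that holds unfolding proteins in solution, read 8.24, 7.96 and 8.45 without treatment and 9.77, 9.42, 9.37 and 9.82 at 7 days, with no overlap. It rose by 1.38 ± 0.15 (adjusted p = 0.00306), and its other probe set on the array gave the same 1.38. Dnajb1, a co-chaperone that hands substrates to HSP70, rose by 0.84 ± 0.15 (adjusted p = 0.0392), from 7.50 to 8.13 up to 8.46 to 8.78. Hspa1a and Hspb1 stayed called in all 12 fits that each left out 1 tumour cell array, and Dnajb1 in 4. Of 15 heat shock chaperones measured, these 3 were called higher and none lower, against 0.396% and 0.110% of all genes. In total 13 of the 15 had positive differences, with a median of 0.20 against -0.01 over all genes.

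The promoters of Hspa1a and Hspb1 are shown because both genes moved in all arrays of the group and both hold the inverted repeat unit to which heat shock factors bind. The windows are the 250 bases before the RefSeq start of each gene (assembly GRCm38.p6), read 5′ to 3′ on the gene's strand, and capitals mark each match to GAANNTTC or its reverse complement TTCNNGAA, searched on both strands.
Hspa1a (chr17:34972157-34972406, minus strand): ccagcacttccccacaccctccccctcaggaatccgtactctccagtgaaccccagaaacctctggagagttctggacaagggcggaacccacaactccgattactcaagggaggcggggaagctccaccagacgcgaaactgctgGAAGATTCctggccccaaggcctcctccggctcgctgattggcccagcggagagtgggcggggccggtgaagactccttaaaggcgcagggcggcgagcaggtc
Hspb1 (chr5:135887669-135887918, plus strand): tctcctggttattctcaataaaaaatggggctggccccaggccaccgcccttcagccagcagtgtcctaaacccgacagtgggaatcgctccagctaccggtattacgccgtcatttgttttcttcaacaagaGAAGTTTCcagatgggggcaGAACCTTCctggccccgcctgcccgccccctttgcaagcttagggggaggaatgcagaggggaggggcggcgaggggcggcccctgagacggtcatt
Hspa1a holds 1 match, beginning 104 bases before its start, and Hspb1 holds 2, beginning 117 and 97 bases before its start. Among 12 heat shock chaperones with a promoter in the table, 7 held a match (58.3%), among all 27025 promoters 3932 did (14.5%). Dnajb1, also called, was not among those 7 chaperones. Among the 63 genes called higher with a promoter in the table the share was 12.7%. These are matches of letters, not measured binding.

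Of the immediate early genes, which cells switch on within minutes of a growth factor signal, stress or handling, 3 rose. Dusp1, a phosphatase that switches off MAP kinases, read 10.61, 9.67 and 10.24 in untreated and 11.57, 11.59, 11.44 and 11.36 in 7-day arrays, and rose by 1.32 ± 0.20 (adjusted p = 0.0211). Zfp36, which destabilises cytokine mRNAs, read 9.29, 9.04 and 9.10 without treatment and 10.33, 9.80, 10.07 and 9.73 at 7 days, a rise of 0.84 ± 0.16 (adjusted p = 0.0445). Csrnp1, a nuclear protein of the same class, rose by 0.98 ± 0.14 (adjusted p = 0.0175), from 6.39 to 6.65 up to 7.32 to 7.74. None of these 3 overlapped between the groups, which held for every called gene and for 10.2% of all genes. These 3 were the called members among 25 immediate early genes, against 0.396% of all genes called higher. Csrnp1 stayed called in 10 of 12 fits that each left out 1 tumour cell array, Dusp1 in 9 and Zfp36 in 2. Of the 25, 22 had positive differences and 17 an unadjusted p under 0.05, against 46.8% and 11% of all genes. The median of the list was 0.69, the highest of the 44 function lists. The ends of the list were Atf3, a stress transcription factor, at 1.57 ± 0.36 (adjusted p = 0.0953) and Myc at -0.46 ± 0.19 (adjusted p = 0.41). The mean level of the list was 8.25 to 8.61 in untreated, 8.82 to 9.21 in 7-day and 8.45 to 9.02 in 21-day arrays. In endothelial cells its median difference at 7 days was 0.59, so the list lay above zero in both sorted populations. Their part in the other differences was not tested.

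The promoter of Dusp1 carries the palindrome TGACGTCA, the cyclic AMP response element, marked in capitals in the same kind of window.
Dusp1 (chr17:26508473-26508722, minus strand): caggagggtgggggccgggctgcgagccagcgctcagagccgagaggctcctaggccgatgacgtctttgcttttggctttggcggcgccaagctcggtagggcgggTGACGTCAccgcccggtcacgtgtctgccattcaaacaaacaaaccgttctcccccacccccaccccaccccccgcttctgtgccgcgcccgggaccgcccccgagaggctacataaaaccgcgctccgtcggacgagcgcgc
The match begins 143 bases before the start. This motif occurred in 1.77% of all promoters and in 3 of 21 immediate early genes with a promoter in the table (Btg2, Dusp1 and Maff). Zfp36 and Csrnp1, also called, were not among those 3. Among the 63 genes called higher with a promoter in the table the share was 1.59%.

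Genes of the unfolded protein response, which matches the folding capacity of the endoplasmic reticulum to its load, showed small positive differences. Herpud1, which helps to remove misfolded proteins from the endoplasmic reticulum, read 7.73, 7.37 and 7.51 in untreated and 8.68, 8.07, 8.72 and 8.90 in 7-day arrays. It rose by 1.06 ± 0.19 (adjusted p = 0.0392) and was the called member among 25, against 0.507% of all genes. Of the 25, 22 had positive differences, against 46.8% of all genes, with a median of 0.20. The foldase Pdia4 (0.49 ± 0.11, adjusted p = 0.0851) and the secreted factor Manf (0.37 ± 0.09, adjusted p = 0.107) did not overlap between groups but were not called. Targets of ATF4, the regulator of the amino acid stress response, had a median of 0.07 with no member called.

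**Figure D2:**
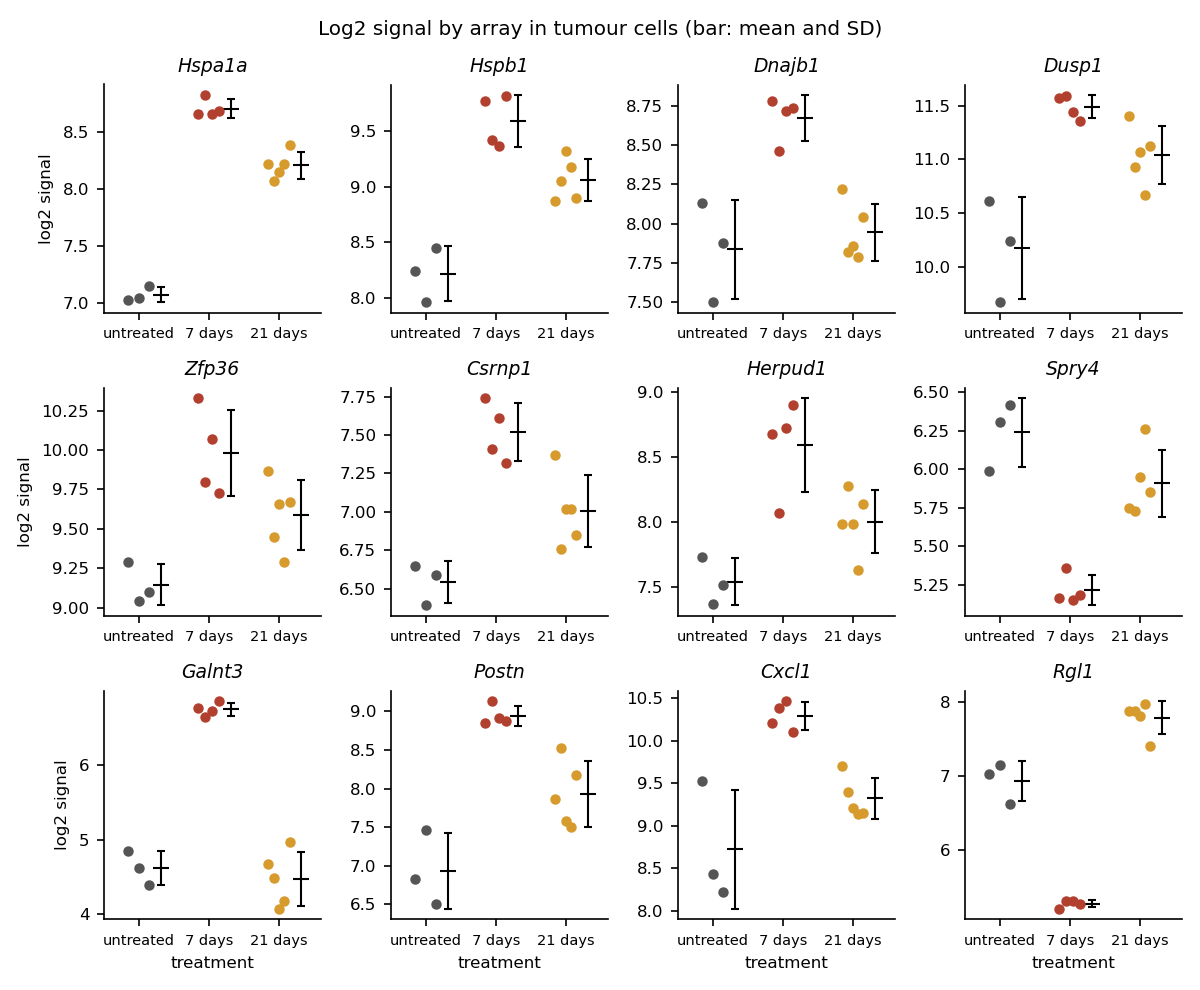
Log2 signal (vertical axes, a separate scale for each gene) of 12 genes in each tumour cell array of the untreated (n = 3), 7-day (n = 4) and 21-day (n = 5) groups; points are arrays, bars the mean and SD. For every gene shown the 7-day arrays do not overlap the untreated arrays, with Spry4 and Rgl1 below them and the others above.

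The receptors that nintedanib inhibits did not pass the test at the transcript level. None of 13 target receptor genes was called by limma, and their median difference was -0.05. An unadjusted p under 0.05 was found for 2 of them (15.4%, against 11% of all genes). Pdgfra, the alpha receptor for platelet-derived growth factors, read 9.50, 9.21 and 10.03 in untreated and 9.15, 8.78, 8.72 and 9.02 in 7-day arrays. These ranges lie next to each other without overlap, and the difference was -0.66 ± 0.19 (adjusted p = 0.167). Pdgfrb differed by 0.57 ± 0.29 (adjusted p = 0.512), with overlapping arrays. Fgfr1 had nearly equal means, 9.31 and 9.28, with a difference of -0.03 ± 0.10 that was 0.05 without untreated replicate 3. Kdr, the main vascular endothelial growth factor receptor, was near the floor of the scale in tumour cells, at 3.92 and 3.79, against 10.23 in untreated endothelial cells.

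Among 16 ligands of these receptors none was called either, and the median was -0.04. An unadjusted p under 0.05 was found for 4 (25%, against 11% of all genes). Pdgfc, a ligand of the alpha receptor, had the highest positive difference of all measured genes, 2.15 ± 0.45, but an adjusted p of 0.0682. It read 5.44, 6.55 and 5.44 without treatment and 7.82 to 8.04 at 7 days, and it was called in 5 of 23 alternatives. Fgf7, a growth factor for epithelial cells, differed by -1.63 ± 0.57 (adjusted p = 0.277). Its untreated arrays spread from 4.24 to 7.13 and overlapped the 7-day range of 3.56 to 4.59. Vegfa, the main vessel growth factor, differed by 0.20 ± 0.18 and Vegfc, which acts on lymphatic vessels, by 0.64 ± 0.23, with overlapping arrays in both cases.

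Of the ERK feedback and output genes, Spry4 fell. It encodes a Sprouty protein that restrains signalling from growth factor receptors to ERK. The untreated arrays read 5.99, 6.31 and 6.42 and the 7-day arrays 5.16, 5.36, 5.15 and 5.18, with no overlap, a difference of -1.03 ± 0.13 (adjusted p = 0.0099, but 0.797 in the fit over all 23 arrays). Etv1, an ERK-responsive transcription factor, came next, at 8.12, 7.94 and 7.90 against 7.23, 6.82, 6.68 and 7.39. Its difference was -0.96 ± 0.19 with an adjusted p of 0.0524, just outside the threshold, and a further probe set gave -1.15. Etv5 differed by -0.58 ± 0.21 (adjusted p = 0.301), and its other probe set by only -0.18 ± 0.15. Dusp6 (0.13 ± 0.13) and Etv4 (0.18 ± 0.27) did not share that sign, and for Etv4 the sign turned to -0.24 without untreated replicate 2. Over the 20 genes of the list 8 differences were positive and the median was -0.10. Spry4 alone was called, against 0.507% of all genes, so the list did not move as a block.

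Glycolysis was tested because the series is about the exchange of metabolites between tumour cells. Pfkp, an isoform of phosphofructokinase that commits sugar to glycolysis, rose by 1.36 ± 0.18 (adjusted p = 0.0114), from 4.96, 4.69 and 4.80 to 6.12, 5.99, 6.26 and 6.36. It was the called member of 17 glycolysis genes, against 0.507% of all genes. Of the 17, 14 had positive differences, against 46.8% of all genes, with a median of 0.17. Ldhb, the lactate dehydrogenase subunit that favours lactate use, lay at the other end with -1.06 ± 0.24 (adjusted p = 0.0907), from 6.29 ± 0.44 to 5.23 ± 0.20 with no overlap. Ldha differed by 0.20 ± 0.12, and Hk2, which traps glucose in the cell, by 0.17 ± 0.17, with a sign that turned to -0.02 without untreated replicate 3.

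The lactate and glucose transporters were not called. The lactate carrier gene Slc16a1 read 7.24, 7.29 and 7.28 without treatment and 7.85, 7.92, 7.69 and 7.37 at 7 days, a difference of 0.44 ± 0.15 (adjusted p = 0.268). The lactate export gene Slc16a3 differed by -0.16 ± 0.08 and the glucose transporter gene Slc2a1 by 0.29 ± 0.15 (adjusted p = 0.48 and 0.513). Hypoxia genes had small positive differences in 26 of 29 cases, against 46.8% of all genes, with a median of 0.21. By limma none was called, and 7 had an unadjusted p under 0.05, against 11% of all genes. The prolyl hydroxylase Egln3 (0.96 ± 0.30, adjusted p = 0.218), the mitophagy receptor Bnip3 (0.88 ± 0.26, adjusted p = 0.186) and Bhlhe40 (0.82 ± 0.25, adjusted p = 0.206) had the smallest p among them. Car9, a hypoxia-induced carbonic anhydrase, was near the floor of the scale at 3.42 and 3.59. In the 21-day arrays, which are compared with the same 3 untreated arrays, the median of the hypoxia genes was 0.40 and Bnip3 differed by 2.24 ± 0.25 (adjusted p = 0.00811). Oxidative phosphorylation genes had a median of 0.02 with none of 32 called. An unadjusted p under 0.05 was found for 4 of them (12.5%, against 11% of all genes). Sdhd, a subunit of succinate dehydrogenase, differed by -0.58 ± 0.12 (adjusted p = 0.0672).

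Of 27 chemokine ligands, 3 were called higher and none lower, against 0.396% and 0.110% of all genes. The median of the list was 0.04. Cxcl1 and Cxcl2 encode ligands that attract neutrophils and promote vessel growth, and Cxcl14 a chemokine of epithelial tissues. Cxcl2 read 5.99, 4.98 and 5.66 in untreated and 7.71, 7.33, 7.56 and 6.88 in 7-day arrays, a rise of 1.82 ± 0.35 (adjusted p = 0.0454). Cxcl1 read 9.52, 8.43 and 8.22 in untreated and 10.21, 10.38, 10.46 and 10.10 in 7-day arrays, a rise of 1.56 ± 0.26 (adjusted p = 0.0254). Untreated replicate 1 was the highest of the untreated arrays for both genes, still below every 7-day array. Cxcl14 rose by 1.51 ± 0.21 (adjusted p = 0.0173), from 4.92 to 5.66 up to 6.58 to 7.03. Cxcl14 stayed called in 10 of 12 fits that each left out 1 tumour cell array, Cxcl1 in 6 and Cxcl2 in 3. The 10 neutrophil markers had a median difference of -0.06 with none called, and Ccl2 and Ccl7, ligands for monocytes, had negative differences of -0.61 and -0.48 that were not called.

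The promoters of Cxcl1 and Cxcl2, neighbours on chromosome 5, are shown because both genes rose and both hold the sequence pattern recognised by NF-kB factors. Capitals mark every match to GGGNNNTTCC or its reverse complement GGAANNNCCC, and matches that overlap on opposite strands are counted separately.
Cxcl1 (chr5:90890995-90891244, plus strand): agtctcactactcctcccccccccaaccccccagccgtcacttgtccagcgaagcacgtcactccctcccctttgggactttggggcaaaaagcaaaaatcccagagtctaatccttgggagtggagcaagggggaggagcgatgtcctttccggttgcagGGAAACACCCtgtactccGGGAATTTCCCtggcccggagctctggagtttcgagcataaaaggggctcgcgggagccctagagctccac
Cxcl2 (chr5:90903649-90903898, plus strand): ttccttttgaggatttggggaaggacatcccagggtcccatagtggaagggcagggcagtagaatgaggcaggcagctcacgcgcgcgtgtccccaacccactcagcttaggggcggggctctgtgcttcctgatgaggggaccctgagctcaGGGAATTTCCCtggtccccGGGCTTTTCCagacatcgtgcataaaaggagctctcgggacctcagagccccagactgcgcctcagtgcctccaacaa
Cxcl1 holds 3 matches, beginning 89, 71 and 70 bases before its start, and Cxcl2 holds 3, beginning 97, 96 and 78 bases before it. Both share the stretch GGGAATTTCCC, which is a palindrome apart from its central base. A match occurred in 6 of 19 chemokine promoters (31.6%), in 5 of 63 promoters of genes called higher (7.94%) and in 5.31% of all promoters. Cxcl14, also called, was not among those 6 chemokines. The NF-kB target Tnfaip3, an inhibitor of this pathway, differed by 1.38 ± 0.31 without being called (adjusted p = 0.0837), and of 27 cytokines and NF-kB targets none was called and 9 had an unadjusted p under 0.05, with a median of 0.12.

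The secreted matrix proteins called matricellular signal to cells rather than build the matrix. They gave 3 called rises among 23 genes, against 0.396% of all genes, and a median of 0.35. Of the 23, 12 had an unadjusted p under 0.05, against 11% of all genes. Postn, encoding periostin, an integrin ligand, read 6.83, 7.46 and 6.50 without treatment and 8.85, 9.13, 8.92 and 8.87 at 7 days. The groups were more than a doubling apart, and the rise was 2.02 ± 0.25 (adjusted p = 0.00707), 4.05-fold. Thbs1, encoding thrombospondin, an inhibitor of vessel growth, rose by 1.65 ± 0.32 (adjusted p = 0.0454), from 5.55, 6.11 and 6.01 to 8.01, 7.73, 7.07 and 7.34. Fbln1, a fibulin of elastic fibres, rose by 1.09 ± 0.14 (adjusted p = 0.0099), from 4.72 to 5.17 up to 5.93 to 6.16. Postn and Fbln1 stayed called in all 12 fits that each left out 1 tumour cell array, and Thbs1 in 2. Ccn2, a connective tissue growth factor, differed by 1.49 ± 0.31 (adjusted p = 0.0672). Within the 24 collagens, Col1a1 rose by 0.65 ± 0.12 (adjusted p = 0.0448) and the median was 0.08.

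Fbln1 and Col1a1 are also on the list of 12 fibroblast markers, of which these 2 were called higher, against 0.396% of all genes. In sorted bulk cells a change in the number of cells of a type and in RNA per cell cannot be told apart. Averaged over the fibroblast markers, untreated arrays read 5.98 to 6.40 and 7-day arrays 6.22 to 6.55. The list had 7 positive differences of 12 and a median of 0.10. Several members were strongly expressed in both groups: Dcn read 12.92 and 12.77, Pdgfra 9.58 and 8.91, and Gsn 8.81 and 8.92. Fap (2.93 and 2.89), Lum (3.34 and 3.71) and Dpt (3.78 and 3.68) were near the floor. Of the members not called, Mfap5 differed by 0.70 ± 0.24, Col1a2 by 0.39 ± 0.19 and Col3a1 by -0.24 ± 0.34. Their part in the matrix results was not tested.

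Single genes of adhesion and of mesenchymal cells rose. Fermt1, encoding a kindlin that activates integrins, was near the floor in untreated arrays, at 3.82, 3.82 and 3.79, and read 6.35, 5.69, 5.13 and 5.55 at 7 days, a rise of 1.87 ± 0.22 (adjusted p = 0.00496). It was the called member of 29 integrin, laminin and adhesion genes, against 0.507% of all genes. Of the 29, 21 had positive differences, against 46.8% of all genes, with a median of 0.13. Nes, an intermediate filament gene of progenitor cells, rose by 1.66 ± 0.24 (adjusted p = 0.0176), from 4.30, 4.88 and 4.73 to 6.52, 6.47, 6.04 and 6.17. Ncam1, a neural adhesion molecule, rose by 1.26 ± 0.23 (adjusted p = 0.0409), from 4.05, 4.36 and 4.15 to 6.04, 5.13, 4.95 and 5.68. With Postn these are the 3 called members of 27 regulators and markers of epithelial-to-mesenchymal transition, against 0.507% of all genes. The median of the list was 0.10. The transcription factors of the list were not called: Snai1, Snai2 and Zeb1 differed by -0.30, -0.44 and -0.08, Twist1 by 0.10 and the filament gene Vim by -0.09. Ncam1 also stands on a short list of nerve and lymph node markers, where the glial gene S100b differed by 1.75 ± 0.37 (adjusted p = 0.0725) while the glial genes Sox10 and Mbp differed by -0.01 and -0.34.

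The epithelial genes Galnt3 and Dsp rose as well. Galnt3 starts mucin-type sugar chains on secreted and surface proteins and is expressed in epithelia. It read 4.85, 4.62 and 4.39 without treatment and 6.77, 6.65, 6.73 and 6.86 at 7 days. The 4 treated arrays had an SD of 0.09 and lay far above all untreated arrays, a rise of 2.14 ± 0.19 (adjusted p = 0.00054), 4.39-fold. Of 23 mucin-type glycosylation genes it alone was called, against 0.507% of all genes, and the median was 0.00. Dsp, encoding desmoplakin, which anchors keratins to desmosomes, rose by 1.72 ± 0.31 (adjusted p = 0.0406), from 6.02, 5.89 and 4.89 to 7.30, 7.76, 6.94 and 7.28. It was the called gene among 27 desmosome and keratin genes, against 0.507% of all genes. Of the 27, 21 were positive, against 46.8% of all genes, and the median was 0.10. Krt7 differed by 1.44 ± 0.43 (adjusted p = 0.187). Among 26 genes of the cornified envelope and squamous epithelium none was called and 7 had an unadjusted p under 0.05, with a median of 0.21, although Il18r1, the receptor for interleukin 18, differed by 2.06 ± 0.42 (adjusted p = 0.0603) and Sectm1b by 1.96 ± 0.42 (adjusted p = 0.07). The junction gene F11r differed by 1.87 ± 0.46 (adjusted p = 0.123), with untreated arrays at 7.14, 5.45 and 4.73 and 7-day arrays at 8.02, 7.31, 7.40 and 7.84. Cdh1, encoding E-cadherin, differed by 0.71 ± 0.37 (adjusted p = 0.527), with untreated replicate 3, at 8.62, above all 7-day arrays, and was called in 0 of 23 alternatives. The mean of the epithelial tumour markers moved with these genes (7.01 to 7.29 and 7.51 to 7.59, no overlap), led by Krt7 and by Cd24a at 0.78 ± 0.23 (adjusted p = 0.194). Means without overlap were found for most function lists. The mucin-type glycosylation list, with its median of 0.00, was among them (5.36 to 5.42 and 5.51 to 5.56). The part of the epithelial marker mean in the rises of Galnt3 and Dsp was not tested.

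Of the 15 largest rises, Serinc2, Crip1, Tmem47 and Tsc22d3 were on none of the function lists. Serinc2, a membrane protein of the serine incorporator family, read 6.59, 6.31 and 6.56 in untreated and 8.41, 8.09, 8.40 and 8.96 in 7-day arrays, a rise of 1.98 ± 0.29 (adjusted p = 0.0175). Crip1, a small LIM domain protein, rose by 1.80 ± 0.29 (adjusted p = 0.0244), from 8.20 to 9.04 up to 9.97 to 10.66. Tmem47, a membrane protein of cell junctions, rose by 1.71 ± 0.19 (adjusted p = 0.00306), from 3.87 to 4.44 up to 5.46 to 6.18. All 3 genes separated the groups without overlap, like every called gene. Tsc22d3, a leucine zipper protein induced by glucocorticoids, rose by 1.63 ± 0.25 (adjusted p = 0.0211), from 5.92, 5.92 and 5.95 to 7.10, 7.35, 7.83 and 7.96. The clock repressor Nfil3 rose by 1.09 ± 0.20 (adjusted p = 0.0448), while Per1, which glucocorticoids also induce, differed by 1.12 ± 0.25 (adjusted p = 0.0828). Nfil3 was the called member of 16 circadian clock genes, against 0.507% of all genes, and the median of that list was 0.10. Ctsd, a lysosomal protease, had the smallest called rise among the named genes, 0.49 ± 0.10 (adjusted p = 0.0487). It was the called member of 24 autophagy and lysosome genes, whose median was 0.08.

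**Figure D3:**
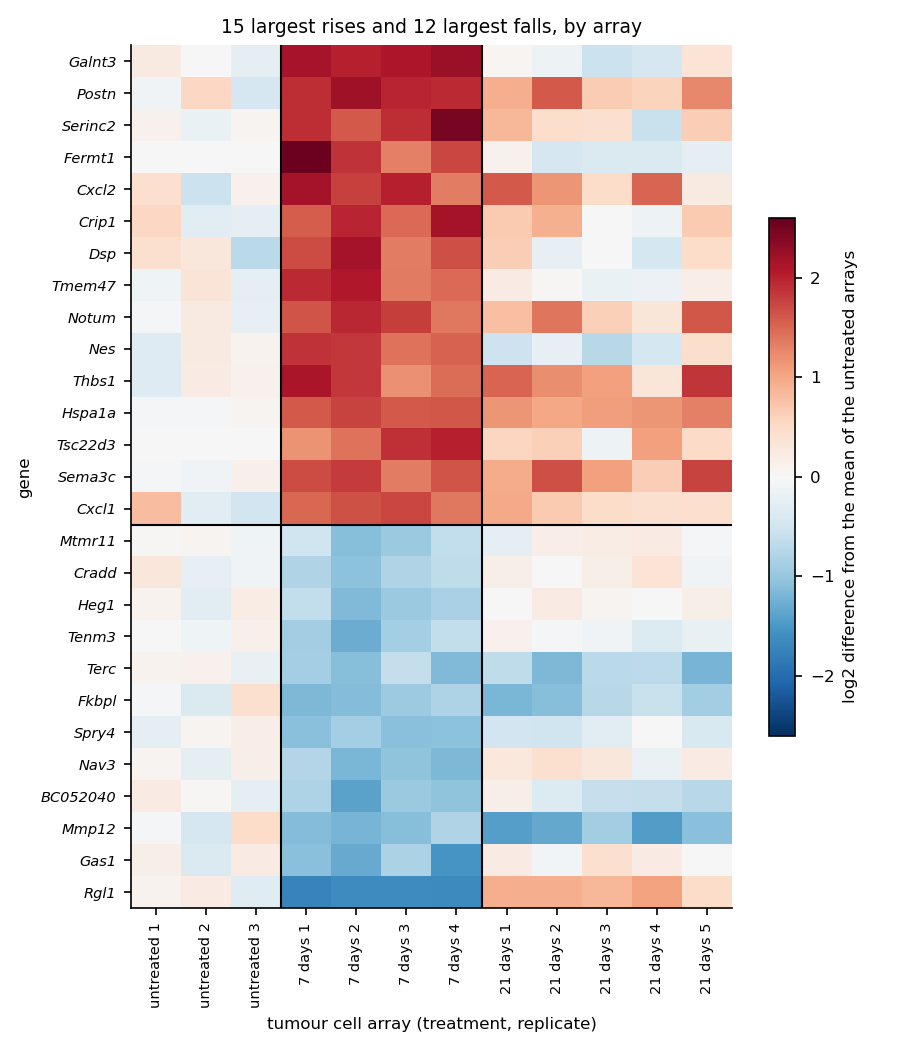
Difference of each tumour cell array (columns) from the mean of the 3 untreated arrays, on the log2 scale given by the colours, for the 15 largest rises (top rows) and 12 largest falls (bottom rows). The 4 columns of the 7-day arrays differ from the untreated columns in every row, and in the 21-day columns Rgl1 lies above the untreated mean while Mmp12 lies below it.

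Signalling genes outside the drug's targets gave single calls in several pathways. Sema3c, a secreted guidance factor that acts through neuropilins, rose by 1.62 ± 0.23 (adjusted p = 0.0175), from 5.85, 5.81 and 6.02 to 7.58, 7.72, 7.23 and 7.52. Its receptor gene Nrp1, singled out after its values were seen, rose by 1.49 ± 0.24 (adjusted p = 0.0244), from 7.28 ± 0.17 to 8.77 ± 0.22. With Thbs1 and Cxcl1, Sema3c made 3 called among 25 angiogenic factors, against 0.507% of all genes. The median of these factors was 0.07. Igf1, a growth factor for many tissues, rose by 1.23 ± 0.23 (adjusted p = 0.0409), from 4.53 ± 0.42 to 5.76 ± 0.24. Tgfbr2, a receptor for transforming growth factor beta, rose by 0.74 ± 0.13 (adjusted p = 0.0392), from 7.32 to 7.84 up to 8.25 to 8.35.

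Of 25 Wnt pathway genes, 3 extracellular inhibitors rose, against 0.396% of all genes, while the list as a whole had no common direction. Notum, an enzyme that removes the lipid from Wnt proteins, read 5.17, 5.43 and 4.98 without treatment and 6.83, 7.16, 6.99 and 6.56 at 7 days, a rise of 1.69 ± 0.27 (adjusted p = 0.0249). Sfrp2 and Sfrp1, soluble proteins that bind Wnt, rose by 1.20 ± 0.22 (adjusted p = 0.0404) and 1.10 ± 0.21 (adjusted p = 0.0454). In 12 fits that each left out 1 tumour cell array, Notum stayed called in 7, Sfrp2 in 3 and Sfrp1 in 1. A further antagonist, Dkk2, lay on the other side, at -1.82 ± 0.36 (adjusted p = 0.0548). Of 25 Wnt genes 11 had positive differences and the median was -0.03, and Axin2 and Lgr5, common readouts of the pathway, differed by -0.04 and -0.03. Of 24 Notch and hedgehog genes 5 had positive differences, and Gas1, a co-receptor for hedgehog proteins, fell by 1.19 ± 0.19 (adjusted p = 0.0221). Its untreated arrays read 9.63, 9.11 and 9.69 and its 7-day arrays 8.38, 8.17, 8.65 and 7.94, with no overlap.

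Rgl1 had the largest fall among the protein-coding genes that were called. It encodes an exchange factor that links Ras to Ral GTPases. Its log2 signal was 7.02, 7.14 and 6.62 in untreated arrays and 5.20, 5.30, 5.30 and 5.27 in 7-day arrays, with an SD of 0.05 among the treated arrays and no overlap. The difference was -1.66 ± 0.14 (adjusted p = 0.000538), 3.16-fold lower. Heg1, a membrane receptor of cell junctions, fell by 0.89 ± 0.13 (adjusted p = 0.0191), and its other probe set also gave a negative difference. Nav3, a microtubule-binding protein, fell by 1.04 ± 0.15 (adjusted p = 0.0175), Tenm3, a teneurin of cell contacts, by 0.93 ± 0.14 (adjusted p = 0.0216), and Cradd, an adaptor of caspase activation, by 0.83 ± 0.14 (adjusted p = 0.0276). Fkbpl, a co-chaperone-like protein, fell by 1.01 ± 0.19 (adjusted p = 0.0409), and Mtmr11 by 0.80 ± 0.15 (adjusted p = 0.0454). The 7-day arrays of these 6 genes lay below all untreated arrays, like those of every gene called lower.

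Mmp12, an elastase best known from macrophages, read 5.05, 4.66 and 5.58 without treatment and 3.97, 3.88, 3.98 and 4.31 at 7 days, and fell by 1.06 ± 0.20 (adjusted p = 0.0451). It was the called gene of 25 matrix proteases and inhibitors, against 0.507% of all genes, and the median of the list was 0.07. Macrophage and monocyte markers were positive in 4 of 19 cases (median -0.13, none called, 4 at an unadjusted p under 0.05). Their mean was 4.86, 4.30 and 4.88 in the untreated and 4.13, 4.01, 4.65 and 4.80 in the 7-day arrays, with overlap. The most negative were Fcer1g (-1.16 ± 0.38), C1qc (-0.89 ± 0.50), Lyz2 (-0.71 ± 1.10) and Tyrobp (-0.69 ± 0.42). C1qa differed by -0.56 ± 0.21, Ms4a7 by -0.50 ± 0.19 and Aif1, without overlap, by -0.40 ± 0.12. Adgre1, a defining macrophage gene, was near the floor at 3.48 in both groups. Their part in the fall of Mmp12 was not tested.

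Small noncoding RNAs were among the calls, singled out here after their values were seen. Of 53 genes that RefSeq classes as small nucleolar RNAs 5 were called, against 0.507% of all genes, with 18 positive and 35 negative differences and a median of -0.30. Snord16a fell by 2.24 ± 0.36 (adjusted p = 0.0244) and Snord118, which acts in ribosomal RNA processing, by 1.71 ± 0.26 (adjusted p = 0.0211), and Gm12238 by 1.67 ± 0.30 (adjusted p = 0.0392), while Snord14e rose by 1.33 ± 0.16 (adjusted p = 0.00476) and Snord37 by 1.51 ± 0.25 (adjusted p = 0.0289). These RNAs are cut from introns of other genes or have genes of their own, and no host gene was called. Rpl4, host of Snord16a, differed by 0.06 ± 0.07, Eef2, host of Snord37, by 0.01 ± 0.06, and Hspa8, host of Snord14e, by 0.19 ± 0.06 (adjusted p = 0.261). Terc, the RNA template of telomerase, fell by 0.94 ± 0.17 (adjusted p = 0.0404), from 8.51 to 8.81 down to 7.56 to 8.09.

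Cell cycle genes had small negative differences that did not pass the test gene by gene. Of 33 mitosis genes 31 had negative differences, with a median of -0.35 and none called. An unadjusted p under 0.05 was found for 8, against 11% of all genes. The mean of the list was 6.38, 6.52 and 6.48 in untreated arrays and 6.03, 6.16, 5.92 and 6.27 in 7-day arrays. These means do not overlap, which was so for most function lists. In the 21-day arrays the mean of the mitosis genes ran from 6.23 to 7.27. Mki67, the proliferation marker, differed by -0.70 ± 0.25 (adjusted p = 0.3), from 7.63, 7.94 and 7.97 to 7.26, 6.93, 6.91 and 7.51. Ndc80, a kinetochore gene, differed by -0.93 ± 0.31 and Ccna2, a cyclin of S phase and mitosis, by -0.59 ± 0.20 (adjusted p = 0.26 and 0.268). Of 29 DNA replication genes 25 had negative differences with a median of -0.26, none called and 7 at an unadjusted p under 0.05. Ribosomal protein genes, by contrast, stayed between -0.10 and 0.16 with a median of -0.01.

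**Figure D4:**
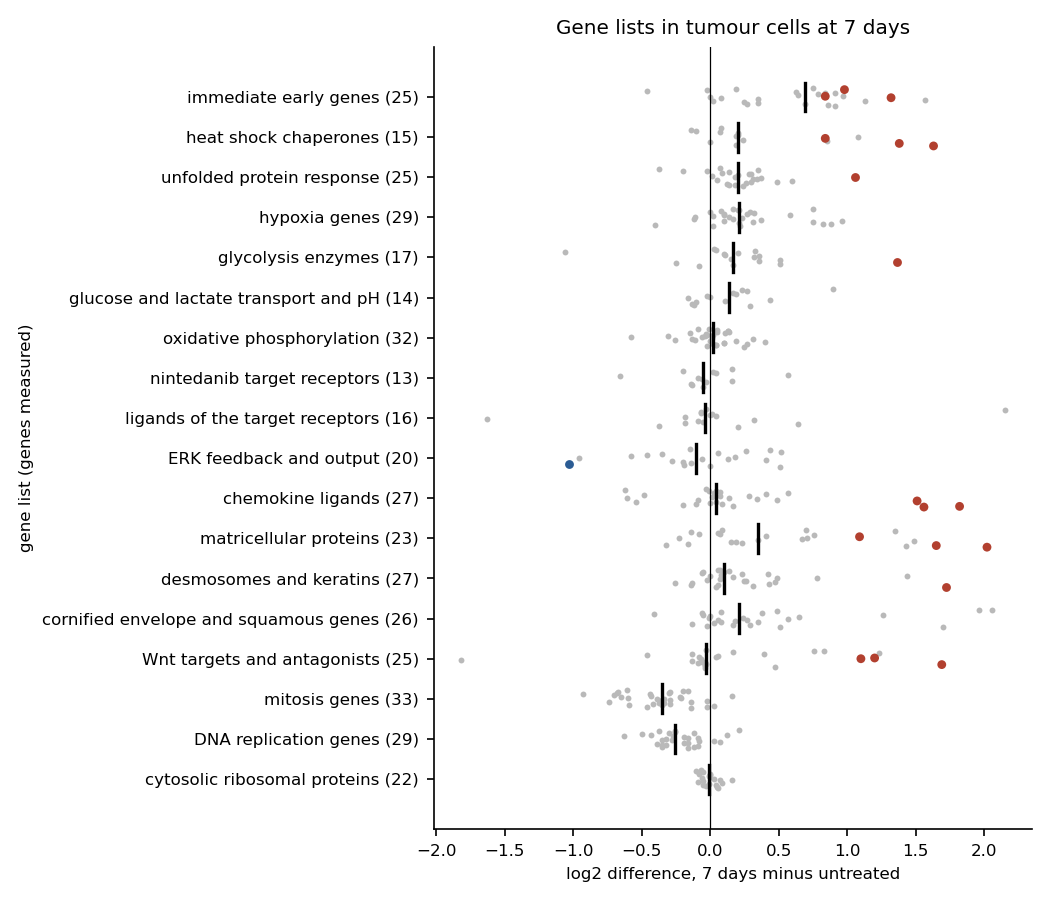
Log2 difference between 7-day and untreated tumour cells (horizontal axis) for the measured members of 18 of the 44 function lists (rows); grey points are genes not called, coloured points called genes, and black bars the list medians. The immediate early genes have the highest median, 0.69, and the mitosis genes the lowest, -0.35, with no mitosis gene called.

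Several other lists held no called gene. These include 25 type I interferon genes (median -0.04), 14 antigen presentation genes (-0.04), 27 genes of cholesterol and fatty acid synthesis (0.10), 29 of the citric acid cycle and fatty acid oxidation (0.09), 20 NRF2 targets (0.01), 20 apoptosis regulators (0.03), 19 p53 targets (0.23) and 24 mammary luminal and basal genes (0.04), with 1 to 6 members of each at an unadjusted p under 0.05. The survival gene Bcl2l1 differed by 0.78 ± 0.15 (adjusted p = 0.0541) and the drug efflux pump gene Abcb1b by 0.94 ± 0.21 (adjusted p = 0.0799), both with no overlap between groups. Among all genes 10.2% had groups without overlap and 11% an unadjusted p under 0.05. Of 21 drug efflux and xenobiotic enzyme genes, none was called and 9 had an unadjusted p under 0.05. Markers of T and NK cells, B cells, dendritic cells, mast cells, adipocytes and erythroid cells had medians between -0.13 and 0.03, with none called.

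The same 7-day treatment was measured in endothelial cells of separate arrays, so the effects could be compared by an interaction test over all genes, which called 19 of them (0.0953%). Of the 79 genes that rose in tumour cells 6 were among these, and of the 22 that fell none was, but the tumour arrays that chose the 101 genes also enter that test. Galnt3 differed by 0.13 ± 0.17 in endothelial cells, 2.01 ± 0.23 less than in tumour cells (adjusted p = 0.000805). The effects of Sema3c, Nes and Fermt1 were larger in tumour cells by 1.89 ± 0.33, 1.73 ± 0.31 and 1.58 ± 0.28 (adjusted p = 0.0367, 0.0383 and 0.0383). Rbm47, an RNA-binding protein, and Esyt3, a membrane contact protein, complete the 6, with differences of 1.39 ± 0.24 and 1.23 ± 0.23 (adjusted p = 0.0367 and 0.0442).

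For other genes the effects lay close together. Hspa1a differed by 1.62 ± 0.28 in endothelial cells (adjusted p = 0.00946), and the difference of effects was 0.01 ± 0.39. Thbs1 differed by 2.13 ± 0.44 there (adjusted p = 0.0279), with a difference of effects of -0.48 ± 0.60. Cxcl1 (1.44 ± 0.55) and Crip1 (1.30 ± 0.38) had positive endothelial differences without being called there. An effect difference that was not called does not show equal effects.

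**Figure D5:**
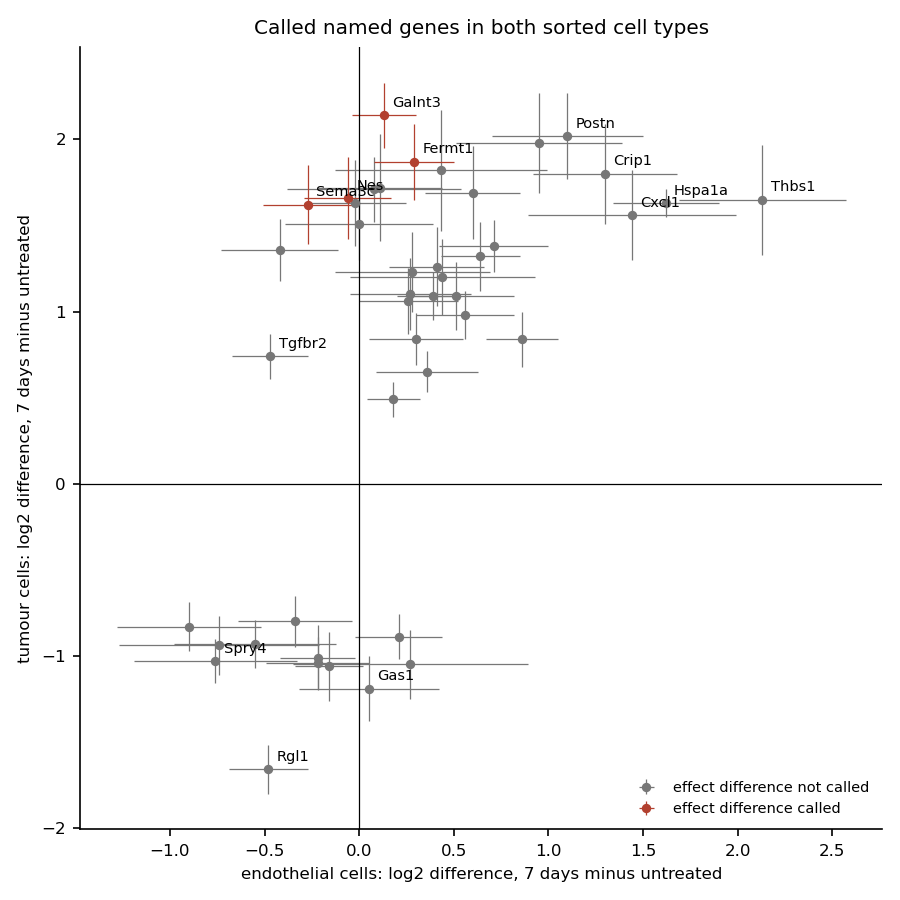
Log2 differences at 7 days in tumour cells (vertical axis, 4 against 3 arrays) and endothelial cells (horizontal axis, 3 against 3 arrays) for the 44 named genes called in tumour cells; bars are standard errors of each fit. Galnt3, Fermt1, Nes and Sema3c, whose effect differed by the interaction test, lie between -0.27 and 0.29 on the endothelial axis, and Hspa1a at 1.62 there.

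The 21-day tumour cells place the 7-day values on a longer course, although they are compared with the same 3 untreated arrays or the same 4 short-term arrays. Against untreated cells 18 genes were called at 21 days (0.0903%), and between 21 and 7 days 243 (1.22%). Galnt3 read 4.67, 4.48, 4.07, 4.18 and 4.97 at 21 days, overlapped the untreated arrays, and differed from the 7-day arrays by -2.28 ± 0.16 (adjusted p = 9.15e-05). Fermt1, Nes and Tmem47 likewise differed from the 7-day arrays, by -2.13 ± 0.20, -1.95 ± 0.21 and -1.69 ± 0.17, with 21-day means of 3.55, 4.34 and 4.12. Hspa1a read 8.22, 8.07, 8.15, 8.22 and 8.39 at 21 days, between the other groups, and differed from untreated by 1.14 ± 0.08 (adjusted p = 0.000152). Pfkp (1.17 ± 0.17 at 21 days, adjusted p = 0.0397) and Cxcl14 (1.83 ± 0.21, adjusted p = 0.00811) were also above untreated at 21 days. Mmp12 was below untreated at both times, by -1.24 ± 0.19 at 21 days (adjusted p = 0.0397). Rgl1 crossed over: it read 7.87, 7.87, 7.80, 7.97 and 7.40 at 21 days, above the untreated arrays by 0.85 ± 0.13 (adjusted p = 0.0397). Spry4 at 21 days was 5.75, 5.73, 5.95, 6.26 and 5.85, a difference of -0.33 ± 0.13 from untreated that was not called (adjusted p = 0.406).

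Of the 44 named genes that were called, 10 stayed called in each of the 12 fits that left out 1 tumour cell array: Hspa1a, Rgl1, Galnt3, Hspb1, Tmem47, Fermt1, Postn, Fbln1, Spry4 and Pfkp. In other alternatives 4 of these lost the call: in the fit over all 23 arrays the adjusted p was 0.797 for Spry4, 0.167 for Tmem47 and 0.0653 for Pfkp, and with the replicate block it was 0.0516 for Fbln1. The other 34 lost the call in at least 1 of the 12 fits, and 19 of them in more than 6. Without untreated replicate 3, 34 calls were lost, and without short-term replicates 1, 2 and 4, 31, 27 and 23. Leaving out untreated replicates 1 and 2 or short-term replicate 3 removed 18, 17 and 18 calls, and leaving out long-term replicates 1 to 5 removed 10, 17, 18, 6 and 9.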

How the data were processed

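Sorted tumour cells of 3 untreated and 4 short-term nintedanib samples were compared, with 5 long-term tumour samples in the same fit and the endothelial arrays used only for the effect difference. The values are log2 signals that the authors deposited, made by RMA with the oligo package per the submitters' processing notes; the sources used here state neither their versions nor the array's genome build. RMA equalises the distributions of all arrays, so a difference is relative to other transcripts, and the number of arrays limits the precision. Of 35556 transcript clusters, 21789 named 1 gene in the platform annotation, 1621 named several and 12146 were not listed. Of the first, 21698 matched a RefSeq gene (GRCm38.p6), and for 999 genes with several clusters the brightest over all 23 arrays was kept, leaving 19938 genes. Clusters of small or near-identical genes can share signal.

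Groups were compared with limma 3.58.1 in R 4.3.3 (lmFit, eBayes, two-sided, Benjamini-Hochberg over all genes, called at an adjusted p under 0.05). The script was tested on simulated data. Genes were named by rule: among called genes the top 15 rises and top 12 falls, without predicted genes, small RNAs and olfactory receptors, the called members of each list described or its members with the smallest p up to 3, and a panel of receptor, lactate and cell cycle genes. Outside that rule, Krt8, Krt18, Epcam and other markers were named to check cell types, and Atf3, Myc, Ccl2, Ccl7, Dkk2, Nrp1, Axin2, Lgr5, Rbm47, Esyt3, the Snai, Zeb and Twist factors, the small RNAs and their hosts were named after their values were seen. The 44 function lists and 14 marker lists (1060 of 1142 symbols measured, 2 under an older name), like the comparison itself, were chosen with earlier results of these data known. Lists are described by counts and medians, with no set test. Alternatives were the arrays in the fit, filters on dim genes, the prior variance, array weights, the rule for several clusters, normalisation, a replicate block and leaving out each array. Promoters are RefSeq sequences of 250 bases.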

Additional observations from a re-analysis of the deposited data

Results flagged for a closer look

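In the 4 short-term arrays, 1 array stood far from the other 3 by Dixon's test in 3 of 88 values checked, where chance gives about 5%. Hspa1a read 8.83 in replicate 2, Spry4 read 5.36 in replicate 2 and Hk2 read 5.17 in replicate 3.

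The 7-day effect differed between tumour and endothelial cells by the interaction test for 4 of the 44 named genes that were called. Over all 19938 genes that test called 19 (0.0953%). The tumour arrays that chose the 44 genes also enter the test, which favours a larger tumour effect, so the 4 are no independent result. The tumour effect was larger by 2.01 for Galnt3, 1.58 for Fermt1, 1.73 for Nes and 1.89 for Sema3c on the log2 scale.

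Of 13767 transcript clusters outside the gene table, which name several genes or none, 29 were called by limma between short-term and untreated tumour cells, 10 higher and 19 lower, and 1219 had an unadjusted p under 0.05.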

How the results depend on the processing

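The 101 called genes kept their sign in every alternative in which they were tested, but most of these alternatives could not have turned it. The number called did not hold. A fit over all 23 arrays called 30 (26 higher, 4 lower), array weights called 67 (51 higher), the 7 arrays alone called 10 lower, and keeping only genes above the 50th percentile of signal called 37 lower. Leaving out 1 array at a time gave 23 to 105 called genes, 15 to 86 higher and 5 to 29 lower. Deviations of same-numbered untreated and short-term arrays correlated at -0.035, -0.029 and 0.015, and those of other pairs at -0.053 to 0.054. Deviations from means of 3 and 4 arrays cannot show whether a number marks a shared animal or day, which the labels do not say. A replicate block called 85 genes, 71 higher and 14 lower, of which 54 were among the 101. The membership of the called set thus changed more than its size in some settings. The 7 arrays alone called 73 genes, 48 of them among the 101. Without untreated replicate 1 it was 45 of 80, and without untreated replicate 3 it was 15 of 24. Other settings kept nearly all, such as 97 of 97 with a robust prior variance. The sign turned for 3 genes near zero and for Birc2. Leaving out 1 array, Etv4 ran from -0.24 (without untreated replicate 2) to 0.39, Hk2 from -0.02 (without untreated replicate 3) to 0.42 and Fgfr1 from -0.10 to 0.05 (without untreated replicate 3). Fgfr1 was 0.01 with the replicate block. Birc2 was -0.62 in the main fit and ran from -0.86 to 0 over the alternatives. It was 0 with the mean of all clusters, which themselves gave -0.62 and 0.62. The cause was not tested. Genes near the floor of the signal scale have compressed differences.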
